A study of Mus musculus with 6 samples.

Results

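A set of 102 genes stood apart in mouse embryonic stem cells that carried induced DGCR8 with the E518K substitution, when set against both cells without DGCR8 and cells with the induced wild-type protein. The genes were chosen by their measured values. Counts were scaled to CPM, the count of a gene per 1000000 counts of its library, and a gene was kept if its highest CPM over the 6 libraries was at least 3. It was taken as higher when both E518K libraries were at least 1.5-fold above the highest of the 4 other libraries, and as lower when both were at least 1.5-fold below the lowest of them, with 0.1 added to every CPM. Of 12224 genes with enough reads, among 21978 in the table, 13 were higher (0.106%) and 89 were lower (0.728%). The ratio of the nearer E518K library to the nearest of the other 4 is called the margin here. The differences between E518K cells and both other groups therefore describe the choice, and nothing is read from counts of calls in them.

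DGCR8 binds primary miRNA transcripts and, with the nuclease Drosha, cuts them into the hairpins from which Dicer makes mature miRNAs. Mature miRNAs pair through their seed, bases 2 to 8, with sites that lie mostly in 3′ untranslated regions (UTRs), and lower the level or translation of those mRNAs. Embryonic stem cells without DGCR8 lack most miRNAs, among them the miR-290 to miR-295 family that dominates these cells. The E518K substitution lies in an RNA-binding domain of DGCR8, and the title of the series links it to Wilms tumours of the kidney and to a partial loss of miRNA processing.

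Messenger RNA was sequenced from 6 libraries in 3 groups of 2. E518K cells (clones 8 and 15) carried the vector pSB ET iE-FlagDGCR8 with the E518K change and the transposase plasmid pCMV(CAT)-SB100X, and their genotype is labelled DGCR8 E518K/E518K. KO cells (libraries 1 and 3) are labelled DGCR8 -/- and were not transfected. Both KO titles carry clone number 261, so their spread may be technical, and p-values measure only the spread between these libraries. The wt cells (clones 12 and 16) carried the same vector with wild-type DGCR8 and the same transposase plasmid, and are labelled DGCR8 wt/wt. All 3 groups were given 300 ng/mL doxycycline for 48 h and grew without feeder cells in medium with LIF, the GSK3 inhibitor CHIR99021 and the MEK inhibitor PD0325901. Every E518K value rests on 2 clones, and what differs between transfected and untransfected cells cannot be told apart from the KO genotype.

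Library totals lay between 73642784 and 75121971 counts, so depth hardly differed. Dgcr8 itself was at 799 and 410 CPM in the E518K clones 8 and 15, 41.6 and 38.7 CPM in KO, and 189 and 997 CPM in wt clones 12 and 16. The E518K and wt clones overlapped in Dgcr8 level while KO lay below both, and wt clone 12 was the lowest of the 4 transfected clones. The spread between libraries of a group, as the biological coefficient of variation, was 9.08% in E518K, 2.6% in KO and 19.1% in wt. All 10 embryonic stem cell markers were expressed, with summed levels of 6570 to 6580 CPM in E518K, 5800 to 5890 CPM in KO and 6420 to 7200 CPM in wt. Of 10 fibroblast markers, 6 were under 1 CPM in every library, and their sum was 3.5 to 4.11 CPM in E518K, 5.74 to 6.31 CPM in KO and 7.4 to 7.73 CPM in wt. In bulk RNA, fewer cells that express a gene and less of its RNA per cell cannot be told apart. By the gene lengths behind the deposited TPM, the counts appear to take in introns as well as exons. No use of strand is stated, so genes with overlapping spans can share reads.

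The same rule applied to the other groups took many more genes. It found 1231 genes higher and 609 lower in KO than in the 4 other libraries, and 463 higher and 304 lower in wt. The E518K set thus leaned towards lower genes, while both other sets held more higher genes. With 1 library fewer to clear, the rule is looser by construction, apart from its minimum CPM. The E518K count was then 32 higher and 162 lower without E518K clone 8, 28 and 157 without clone 15, 25 and 166 without wt clone 12, and 26 and 156 without wt clone 16. Within the E518K group the median absolute log2 difference between the clones was 0.12 in both sets, against 0.1 over all genes with enough reads. The largest was 0.38 among the higher genes and 0.6 among the lower ones. The rule needs both clones on the same side of the other libraries, so their closeness in the sets is partly built in.

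The chosen genes were modestly expressed. Their median highest CPM was 15.0 for the higher and 11.6 for the lower genes, against 40.7 over all genes with enough reads. All 99 that could be placed in the GENCODE M21 annotation of GRCm38 were protein-coding, as were 99.8% of all placed genes with enough reads. Members lay on all 19 autosomes and X. Chromosome 4 had the largest share, with 1 higher and 12 lower of 757 genes (1.72%), and chromosome 13 the smallest, with 1 higher and 1 lower of 419 (0.477%). Over all genes with enough reads the share was 0.834%, and differences between chromosomes were not tested. No chromosome moved as a whole: the median log2 ratio of an E518K clone to the mean of KO and wt lay between -0.16 and -0.02 on every chromosome.

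The bound cuts through a continuum. The 3 higher genes just inside had margins of 1.5003 for Dnah2, 1.5170 for Ccno and 1.5201 for Nkx1-2, while Spry4, Itga10 and Ccne1 just outside had 1.4725, 1.4598 and 1.4559. Among lower genes, Phf2, Cry2 and Pdzrn3 were inside at 1.5012, 1.5063 and 1.5080, and Slc15a1, Tgm2 and Rhbdf1 were outside at 1.4994, 1.4948 and 1.4942. Of the chosen genes, 2 higher and 11 lower had a margin of at least 2.

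Against wt, edgeR's quasi-likelihood test called all 13 higher genes and all 89 lower genes at an adjusted p under 0.05, where 11.3% of the 16498 genes tested were called higher and 12.5% lower. Against KO it called 12 of the 13 and 87 of the 89, where 22.0% of genes were called higher and 19.8% lower. The exceptions against KO were Cdx2 among the higher genes and Pros1 and Abat among the lower ones. These contrasts are the ones the choice was made on. In the gene lists below, rose and fell in E518K mean called by this test at that threshold. Such counts are to be read beside the shares of all genes given here. Calls of chosen genes on a list follow from the choice.

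The higher set held 4 transcription factors, 3 genes of surface receptors and their signalling, 5 with other roles and 1 without annotation. The entry with the widest margin, 2.20, was RP23-153F8.13, to which the tables used here give no gene name or position. It had 104 and 98.2 CPM in E518K, 42.4 and 44.5 CPM in KO, and 41.0 and 42.5 CPM in wt. It was the highest-read member of the set, and its KO and wt libraries overlapped each other in a narrow range.

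Among the transcription factors, Zfp423, a zinc finger protein that works with SMADs in BMP responses, had 10.5 and 13.6 CPM in E518K, 4.4 and 5.47 CPM in KO and 4.07 and 5.68 CPM in wt. Nkx1-2, a homeobox gene of the caudal epiblast and early neural plate, had 80.5 and 61.6 CPM in E518K, 20.7 and 21.7 CPM in KO, and 35.7 and 40.5 CPM in wt. It formed 3 steps, with E518K on top, wt between and KO lowest, and no overlap. The annotated span of Nkx1-2 lies wholly inside that of Fgfr2, a gene with 101618 counts on average in E518K against 92797 in the other 4 libraries, so an unknown part of its reads can be those of Fgfr2. Pou4f2, a factor of retinal ganglion cells, had 4.58 and 4.19 CPM in E518K, 1.72 and 1.76 CPM in KO and 1.7 and 2.61 CPM in wt.

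Cdx2, which specifies trophectoderm and later the intestine, had 3.62 and 3.41 CPM in E518K, 1.97 and 2.16 CPM in KO and 1.57 and 0.516 CPM in wt. The wt clones were far apart, with clone 16 the lowest library. The 10 trophectoderm markers summed to 33.7 to 36.3 CPM in E518K, 42.4 to 43.9 CPM in KO and 42.7 to 54.7 CPM in wt, lowest in the cells with the most Cdx2. Against wt, 1 of 8 tested markers rose in E518K (Cdx2) and 4 fell, with a median log2 difference of -0.94, where the median of all genes tested was -0.02. Against KO, 2 rose and 1 fell, with a median of 0.32. Their part in the Cdx2 value was not tested.

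Of the receptor genes, Itga9, an integrin subunit that binds tenascin and osteopontin, had 31.3 and 36.7 CPM in E518K, 15.8 and 15.6 CPM in KO and 15.2 and 17.2 CPM in wt. KO and wt overlapped for this gene. Gng3, a gamma subunit of G proteins found mainly in neurons, had 24.5 and 24.7 CPM in E518K, 5.78 and 6.12 CPM in KO, and 14.7 and 13.1 CPM in wt. Of the Gng3 span, 76.4% overlaps Bscl2, whose mean count was 3947 in E518K and 2907 in the other libraries. Cntfr, the ligand-binding subunit of the receptor for ciliary neurotrophic factor, which signals through the LIF receptor and gp130, had 6.8 and 6.25 CPM in E518K, 0.997 and 1.22 CPM in KO, and 3.27 and 3.94 CPM in wt. Gng3 and Cntfr shared the order E518K, wt, KO with no overlap between groups.

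The rest had mixed roles. Tmsb4x, an X-linked gene for thymosin beta 4, which binds actin monomers, had 94.2 and 94 CPM in E518K, 48.0 and 54.0 CPM in KO and 22.0 and 43.4 CPM in wt. Cabp4, a calcium-binding protein of photoreceptor synapses, had 3.88 and 3.72 CPM in E518K, 1.31 and 1.35 CPM in KO and 1.53 and 1.64 CPM in wt. Its span overlaps Gpr152 over 49.3%, a gene with 5 counts on average in E518K and 1 in the other libraries. Apoa2, an apolipoprotein of high-density lipoprotein, had 12.6 and 15.0 CPM in E518K, 7.13 and 7.66 CPM in KO and 5.34 and 6.06 CPM in wt. Ccno, a cyclin of multiciliated cells, was at 3.73 and 3.12 CPM in E518K, and Dnah2, a heavy chain of ciliary dynein, at 15.6 and 15.8 CPM. In the other 4 libraries Ccno ranged from 1.25 to 2.02 CPM and Dnah2 from 6.1 to 10.4 CPM.

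**Figure D1:**
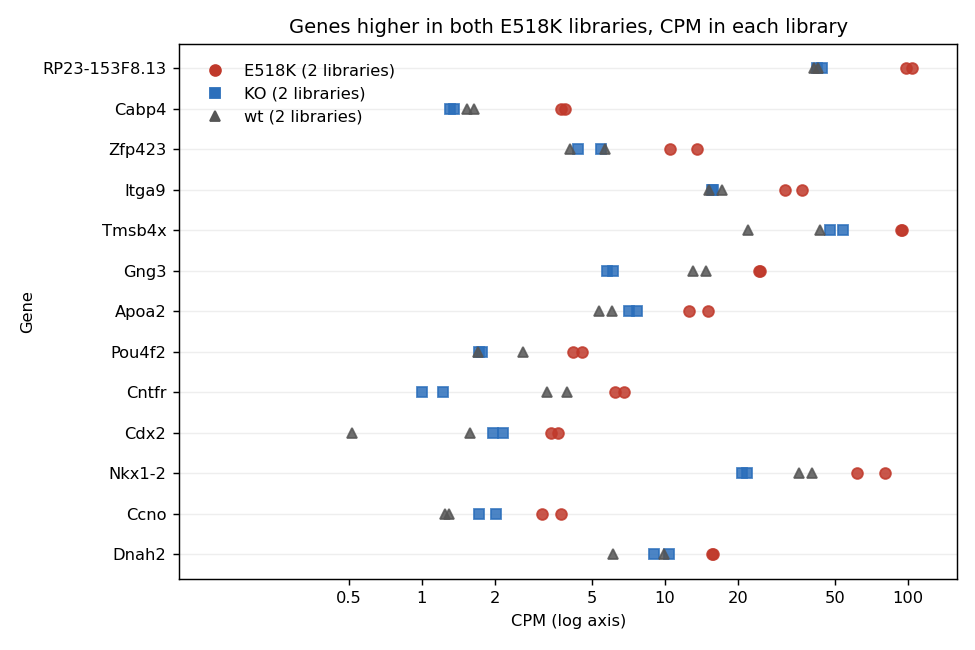
CPM on a log axis for the 13 higher genes, ordered by margin from the top, with 1 marker per library (circles E518K, squares KO, triangles wt). Both circles lie right of all other markers for every gene, as the choice requires. For Gng3, Cntfr and Nkx1-2 the KO squares lie left of the wt triangles.

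The lower set was led by Bmp7, a bone morphogenetic protein needed in the embryo to keep nephron progenitors of the kidney. It had 3.43 and 2.8 CPM in E518K, 15.2 and 13.6 CPM in KO and 24.0 and 14.9 CPM in wt, and its margin of 3.88 was the widest of all 102 genes. KO overlapped wt. The fitted log2 difference was -2.64 ± 0.26 (SE) from wt and -2.12 ± 0.25 from KO. Other ligands and co-receptors of the family did not all follow. Rgmb, a BMP co-receptor, was also in the lower set, at 5.78 and 5.7 CPM in E518K, 13.3 and 12.2 CPM in KO and 9.93 and 10.7 CPM in wt. Bmp4, by contrast, had 4.55 and 9.78 CPM in E518K, 2.45 and 2.31 CPM in KO and 5.03 and 7.79 CPM in wt. Bmp7 is among 23 tested genes of BMP and TGF-beta signalling, and its falls are part of the choice. Of the 23, 5 rose and 4 fell in E518K against wt (median log2 difference 0.09). Against KO, 9 rose and 10 fell (median -0.34). The BMP target Id1 had 3.41 and 3.44 CPM in E518K, 8.8 and 11.6 CPM in KO and 1.2 and 1.34 CPM in wt. A link of Id1 to the Bmp7 level was not tested.

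In all, 18 lower genes were signalling ligands, receptors or modulators. Adgre5, the adhesion receptor CD97, had 21.7 and 21.7 CPM in E518K, 56.9 and 56.6 CPM in KO and 47.8 and 56.5 CPM in wt, although 20.1% of its span overlaps the more strongly read Ddx39. Tnfrsf1b, TNF receptor 2, had 12.9 and 10.4 CPM in E518K, 27.8 and 25.9 CPM in KO and 28.5 and 26.0 CPM in wt. For both genes the E518K clones lay well below the narrow range of the other 4 libraries.

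Jag2, a Notch ligand, had 2.78 and 2.58 CPM in E518K, 7.96 and 7.85 CPM in KO and 5.46 and 7.62 CPM in wt. Its relative Jag1 had another order, with 35.5 and 31.6 CPM in E518K, 41.5 and 42.2 CPM in KO and 19.2 and 22.3 CPM in wt. Jag2 is among 15 tested Notch genes, and its falls are part of the choice. Of the 15, 3 rose and 5 fell against wt (median log2 difference -0.50) and 3 rose and 4 fell against KO (median -0.12).

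Igf2r, the receptor that clears IGF2 and sorts lysosomal enzymes, had 48.9 and 42.6 CPM in E518K, 90.1 and 89.8 CPM in KO and 112 and 98.4 CPM in wt. Another gene of the insulin-like growth factor system, Igfbp2, had a different order. Igfbp2 had 349 and 306 CPM in E518K, 60.7 and 55.9 CPM in KO and 991 and 867 CPM in wt, with E518K between the other groups. A list of that system had 15 tested genes, Igf2r among them. Of these, 0 rose and 8 fell in E518K against wt (median log2 difference -0.80), and 6 rose and 3 fell against KO (median 0.31). Of all genes tested, 11.3% were called higher and 12.5% lower against wt, and 22.0% and 19.8% against KO. Igf2r is also an imprinted gene, and of 25 tested imprinted genes 3 rose and 10 fell against wt (median -0.69), and 10 rose and 6 fell against KO (median 0.23).

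Lrp1, a large endocytic receptor, had 28.8 and 31.2 CPM in E518K, 55.1 and 58.2 CPM in KO and 52.7 and 55.8 CPM in wt. A list of lipid uptake had 15 tested genes, Lrp1 among them. Of these, 1 rose and 7 fell against wt (median log2 difference -0.30), and 3 rose and 5 fell against KO (median -0.20). The Wnt receptor Fzd6 had 2.38 and 2.21 CPM in E518K, 7.22 and 7.24 CPM in KO and 3.91 and 3.72 CPM in wt. Pros1, protein S, a plasma protein that is also a ligand of TAM receptors, had 3.54 and 3.45 CPM in E518K, 6.87 and 7.46 CPM in KO and 7.8 and 20.5 CPM in wt. Its wt clone 16 stood far above wt clone 12, and the same was true of Dmrt1 and Abat. The remaining genes of this role were Fam83g, a SMAD1 partner, Dact3, a Wnt antagonist, Hbegf, an EGF receptor ligand, F3, tissue factor, the heparan sulfate proteoglycan Sdc3, the beta-arrestin Arrb1, and Itpkb, Plcd1 and Camk2n1, which act in inositol phosphate and calcium signalling. Their margins lay between 1.63 for Plcd1 and 1.89 for F3.

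Another 12 lower genes act in fuel use and other metabolism. Pdk4, a kinase that shuts pyruvate dehydrogenase, had 3.27 and 2.7 CPM in E518K, 13.6 and 12.4 CPM in KO and 10.0 and 9.14 CPM in wt. Its margin was 2.74. The family member Pdk1 had 124 and 118 CPM in E518K, 145 and 150 CPM in KO and 119 and 126 CPM in wt, so E518K was not set apart for that gene. Cpt1a, the carnitine palmitoyltransferase that admits long-chain fatty acids to mitochondria, had 112 and 106 CPM in E518K, 223 and 220 CPM in KO and 170 and 171 CPM in wt. Txnip, the thioredoxin-interacting protein that restrains glucose uptake, had 84.8 and 85.1 CPM in E518K, 259 and 252 CPM in KO and 136 and 203 CPM in wt. These 3 genes had the same order, E518K lowest, wt between and KO highest, without overlap.

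Hk1, a hexokinase, had 68.6 and 57.8 CPM in E518K, 117 and 118 CPM in KO and 147 and 117 CPM in wt, with KO and wt overlapping. Hk2, the other main hexokinase of these cells, lay between the groups, with 242 and 250 CPM in E518K, 178 and 191 CPM in KO and 350 and 334 CPM in wt. Mpi, which converts fructose 6-phosphate and mannose 6-phosphate into each other, had 7.84 and 8.84 CPM in E518K, 22.2 and 19.3 CPM in KO and 34.7 and 31.5 CPM in wt, a 3-step order with wt on top. No gene of a list of 22 genes of hypoxia and glycolysis was in either set. Of these, 19 fell in E518K against wt (median log2 difference -0.94) while 20 rose and 1 fell against KO (median 0.70). The rest of this role were Mgll, Ampd3, Oxsm, Cyp2s1, Abat, Lclat1 and the circadian repressor Cry2. In E518K they ranged from 0.776 CPM for Ampd3, whose span overlaps Rnf141 over 27.1%, to 19.6 CPM for Cry2.

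Solute carriers gave 4 lower genes of 213 with enough reads, where 0.728% of all genes with enough reads were lower. They were Slc5a10, a sugar transporter, Slc44a3, of the choline transporter-like family, Slc7a2, a carrier of cationic amino acids, and Slc16a6, of the monocarboxylate transporter family. Slc16a6 was the most read of them, with 21.4 and 18.2 CPM in E518K, 37.5 and 40.4 CPM in KO and 36.8 and 34.2 CPM in wt. Slc5a10 and Fam83g are not independent. The Fam83g span lies wholly inside that of Slc5a10 on the other strand, and their mean counts were 162 and 155 in E518K, against 432 and 406 in the other libraries, so the same reads can have entered both.

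Cdk5r2, a neuronal activator of the kinase Cdk5, had 2.11 and 2.09 CPM in E518K, 4.36 and 4.38 CPM in KO and 4.21 and 5.3 CPM in wt. Over 21 tested ion channel genes, 2 rose and 6 fell in E518K against wt (median log2 difference -0.59), and 7 rose and 5 fell against KO (median 0.01).

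Innate immunity and antigen presentation accounted for 6 lower genes. Ube2l6, which conjugates the interferon-induced modifier ISG15, had 1.73 and 2.19 CPM in E518K, 6.63 and 7.65 CPM in KO and 9.73 and 5.23 CPM in wt. B2m, the light chain of MHC class I, had 7.51 and 7.2 CPM in E518K, 13.6 and 12.9 CPM in KO and 14.5 and 13.1 CPM in wt. The B2m span lies inside that of Patl2 on the annotation used here. Patl2 had a mean count of 1241 in E518K and 1840 in the other libraries, beside 547 and 1004 for B2m. An unknown part of the B2m reads can thus be those of Patl2. Trim56, a ubiquitin ligase of antiviral signalling, had 2.77 and 2.68 CPM in E518K, 21.7 and 21.3 CPM in KO and 4.77 and 7.12 CPM in wt, so KO stood far above both other groups. Unc93b1, a chaperone of nucleic-acid-sensing Toll-like receptors, the ubiquitin ligase Peli3, and Cyba, a subunit of NADPH oxidase, had margins of 1.61, 1.57 and 1.53.

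**Figure D2:**
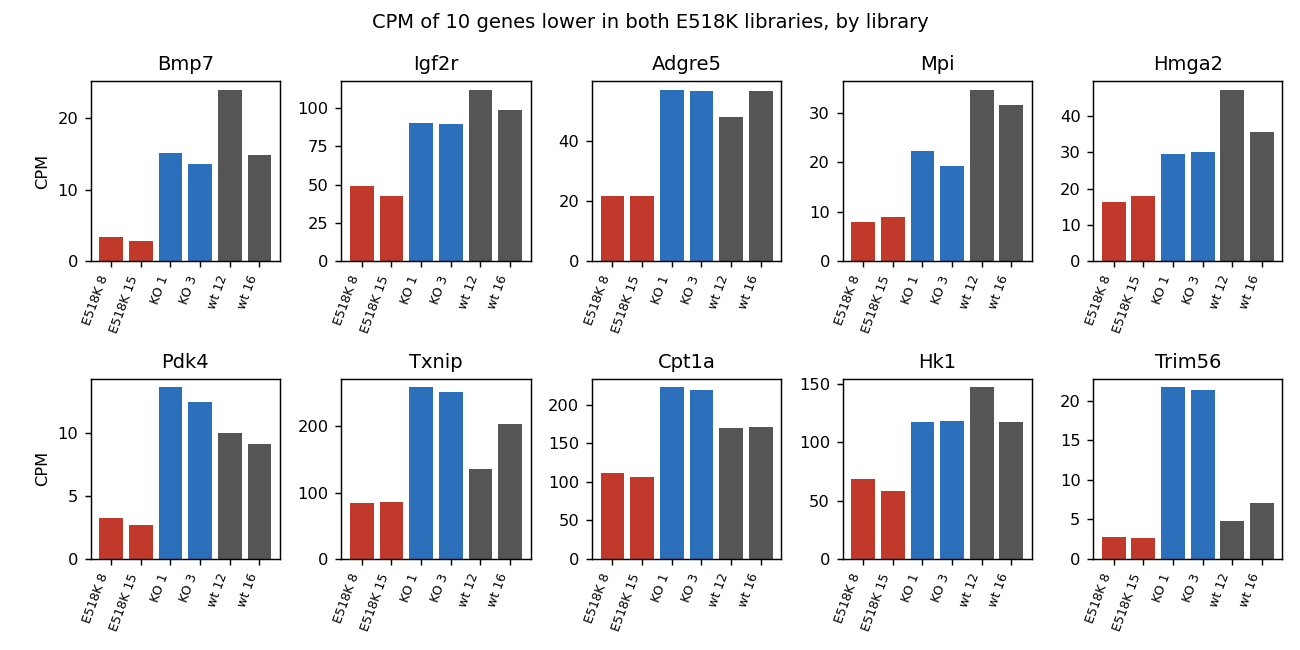
CPM from 0 in each library for 10 lower genes (red E518K clones 8 and 15, blue KO libraries 1 and 3, grey wt clones 12 and 16). The 2 red bars are the shortest in every panel. KO is above wt for Pdk4, Txnip, Cpt1a and Trim56 and below wt for Mpi, Igf2r and Hmga2.

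Matrix, adhesion and cytoskeleton genes numbered 12 among the lower set. They included Col4a1 and Col4a2, whose chains together form the main collagen of basement membranes. These were 2 of 11 collagen genes with enough reads, where 0.728% of all genes with enough reads were lower. Col4a1 had 2.86 and 2.89 CPM in E518K, 5.6 and 5.87 CPM in KO and 4.47 and 5.92 CPM in wt. Col4a2 had 1.05 and 0.963 CPM in E518K, 3.7 and 3.7 CPM in KO and 1.92 and 2.23 CPM in wt. KO and wt overlapped for Col4a1 and did not for Col4a2. A list of 24 tested matrix genes held Col4a1 and Col4a2, whose falls the choice fixed. Of the 24, 3 rose and 8 fell in E518K against wt (median log2 difference -0.31), and 7 fell against KO (median -0.25). Ahnak2 had 9.16 and 10.0 CPM in E518K, 63.1 and 57.9 CPM in KO and 17.9 and 22.0 CPM in wt. Tinagl1, a secreted matrix protein, had 1.11 and 1.14 CPM in E518K, 11.0 and 10.9 CPM in KO and 4.99 and 1.97 CPM in wt. Both had KO highest by a wide gap. The others were Arhgef16 and Arhgef19, guanine nucleotide exchange factors, Srgap1, a GTPase activator of Slit-Robo signalling, the microtubule-severing protein Katnal1, and Epb41l3, Emp2, Crip2 and Jcad.

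Col4a1 and Col4a2 lie head to head on chromosome 8 and their spans share 22 bases at the start. Their RefSeq promoter windows, 250 bases before to 50 after the start on build GRCm38.p6, overlap and are shown because this pair was low in E518K together. Capitals mark the CCAAT box and the GC box, GGGCGG, on either strand.
Col4a1, chr8:11312777-11313076, minus strand: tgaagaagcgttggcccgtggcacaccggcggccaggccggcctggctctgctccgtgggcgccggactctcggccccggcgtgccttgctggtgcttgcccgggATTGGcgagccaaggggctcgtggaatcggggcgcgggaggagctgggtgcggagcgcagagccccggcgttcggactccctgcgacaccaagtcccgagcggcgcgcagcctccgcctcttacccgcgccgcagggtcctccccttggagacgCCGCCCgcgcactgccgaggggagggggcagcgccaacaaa
Col4a2, chr8:11312555-11312854, plus strand: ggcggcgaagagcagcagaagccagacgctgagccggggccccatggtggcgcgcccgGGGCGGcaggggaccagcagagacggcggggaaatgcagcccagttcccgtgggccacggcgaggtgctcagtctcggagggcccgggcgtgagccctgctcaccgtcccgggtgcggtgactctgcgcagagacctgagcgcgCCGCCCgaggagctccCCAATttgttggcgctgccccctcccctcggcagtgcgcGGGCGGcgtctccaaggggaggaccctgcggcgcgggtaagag
Neither window holds TATAAA, and both are rich in G and C, at 74% and 73.7%.

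RefSeq promoter windows were found for 81 of the 102 genes, 11 higher and 70 lower. Median GC content was 64.2% in the lower genes and 61.3% in the higher ones, against 61.3% over 9161 genes with enough reads. The windows held a median of 21 CG dinucleotides in the lower genes, 18 in the higher ones and 21 over all genes, so by these measures the lower set lay near the genes at large, and the collagen pair was richer in G and C than its set. The motif letters were searched on both strands. GGGCGG was in 75.7% of the lower windows against 66.5% of all, CCAAT in 38.6% against 39.2%, and TATAAA in 5.71% against 6.51%. CCGGAAGT, an ETS site, was in 0 of 70 lower and 0 of 11 higher windows against 8.82% of all. ACGTG, the core of the hypoxia response element, was in 15.7% of the lower windows against 26.5% of all. In the higher windows it was in 4 of 11 (36.4%). These letters are a description of the windows and name no bound factor.

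Membrane traffic and degradation compartments supplied 10 lower genes. Cln6, a protein of the endoplasmic reticulum that is lost in a form of Batten disease, had 6.08 and 5.51 CPM in E518K, 14.3 and 13.0 CPM in KO and 17.9 and 13.2 CPM in wt. Rnf103, a ubiquitin ligase of the endoplasmic reticulum, had 1.95 and 2.01 CPM in E518K, 4.65 and 4.31 CPM in KO and 4.47 and 3.99 CPM in wt. Gramd1a, a sterol transfer protein, had 24.8 and 26.0 CPM in E518K, 48.6 and 49.0 CPM in KO and 40.9 and 45.4 CPM in wt. Dnm1, the neuronal dynamin, had 2.3 and 1.82 CPM in E518K, 4.07 and 3.84 CPM in KO and 7.77 and 7.37 CPM in wt. Retreg1, a receptor for autophagy of the endoplasmic reticulum, and the endosomal proteins Snx25 and Wdr91 had margins of 1.88, 1.87 and 1.56. The margins of Stx2, Agfg2 and Creg1 lay between 1.54 and 1.58.

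Chromatin and transcription was the role of 9 lower genes. Med12l, a paralog of the Mediator subunit Med12, had 1.77 and 1.54 CPM in E518K, 6.73 and 5.46 CPM in KO and 5.48 and 6.78 CPM in wt. Its margin of 2.97 was the second of the set. The span of Med12l holds other genes, among them P2ry12, whose mean counts were 18 in E518K and 83 in the other libraries beside 123 and 453 for Med12l.

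Zbtb4, a zinc finger protein that binds methylated DNA, had 1.31 and 1.39 CPM in E518K, 2.84 and 2.89 CPM in KO and 4.21 and 3.2 CPM in wt. Tet3, an enzyme that oxidises methylated cytosine, had 4.49 and 5.02 CPM in E518K, 9.31 and 10.1 CPM in KO and 8.84 and 8.39 CPM in wt. Tet1 had 197 and 225 CPM in E518K, 324 and 336 CPM in KO and 153 and 218 CPM in wt, and Tet2 was within 73.2 to 93.5 CPM in all 6 libraries. Neither relative met the bound. Tet3 is among 22 tested genes of DNA methylation and chromatin. Of these, 2 rose and 5 fell against wt (median log2 difference 0.01), and 7 rose and 5 fell against KO (median 0.09).

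Hmga2, a chromatin protein and classic let-7 target, had 16.4 and 17.9 CPM in E518K, 29.6 and 30.2 CPM in KO and 47.3 and 35.7 CPM in wt. Prdm16, a regulator of brown fat and stem cell maintenance, had 7.09 and 5.83 CPM in E518K, 20.3 and 20 CPM in KO and 13.4 and 15.3 CPM in wt, and its neighbour Arhgef16, 14448 bases away, was also in the lower set. Dmrt1, a sex-determination factor, had 6.11 and 5.48 CPM in E518K, 13.0 and 12.2 CPM in KO and 11.1 and 22.9 CPM in wt. Mbd1, a reader of methylated DNA, the histone demethylase Phf2 and the zinc finger protein Zfp362 completed the role, with margins of 1.63, 1.5 and 1.71.

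Rec8, the meiotic cohesin subunit, had 7.49 and 6.53 CPM in E518K, 36.4 and 31.7 CPM in KO and 17.3 and 14.2 CPM in wt. With the RNA-binding proteins Nova2 and Bicc1 it formed a role of 3 genes. Of the 11 lower genes with other roles, Cuedc1 and Klhdc7a had margins of 2.47 and 2.04. Cuedc1 had 1.82 and 1.73 CPM in E518K, 5.58 and 4.72 CPM in KO and 5.8 and 4.66 CPM in wt. Klhdc7a had 2.84 and 2.27 CPM in E518K, 9.35 and 5.89 CPM in KO and 6.39 and 10.1 CPM in wt. The entries RP23-103I12.4 and RP23-188F20.2 have no annotation in the tables used here.

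**Figure D3:**
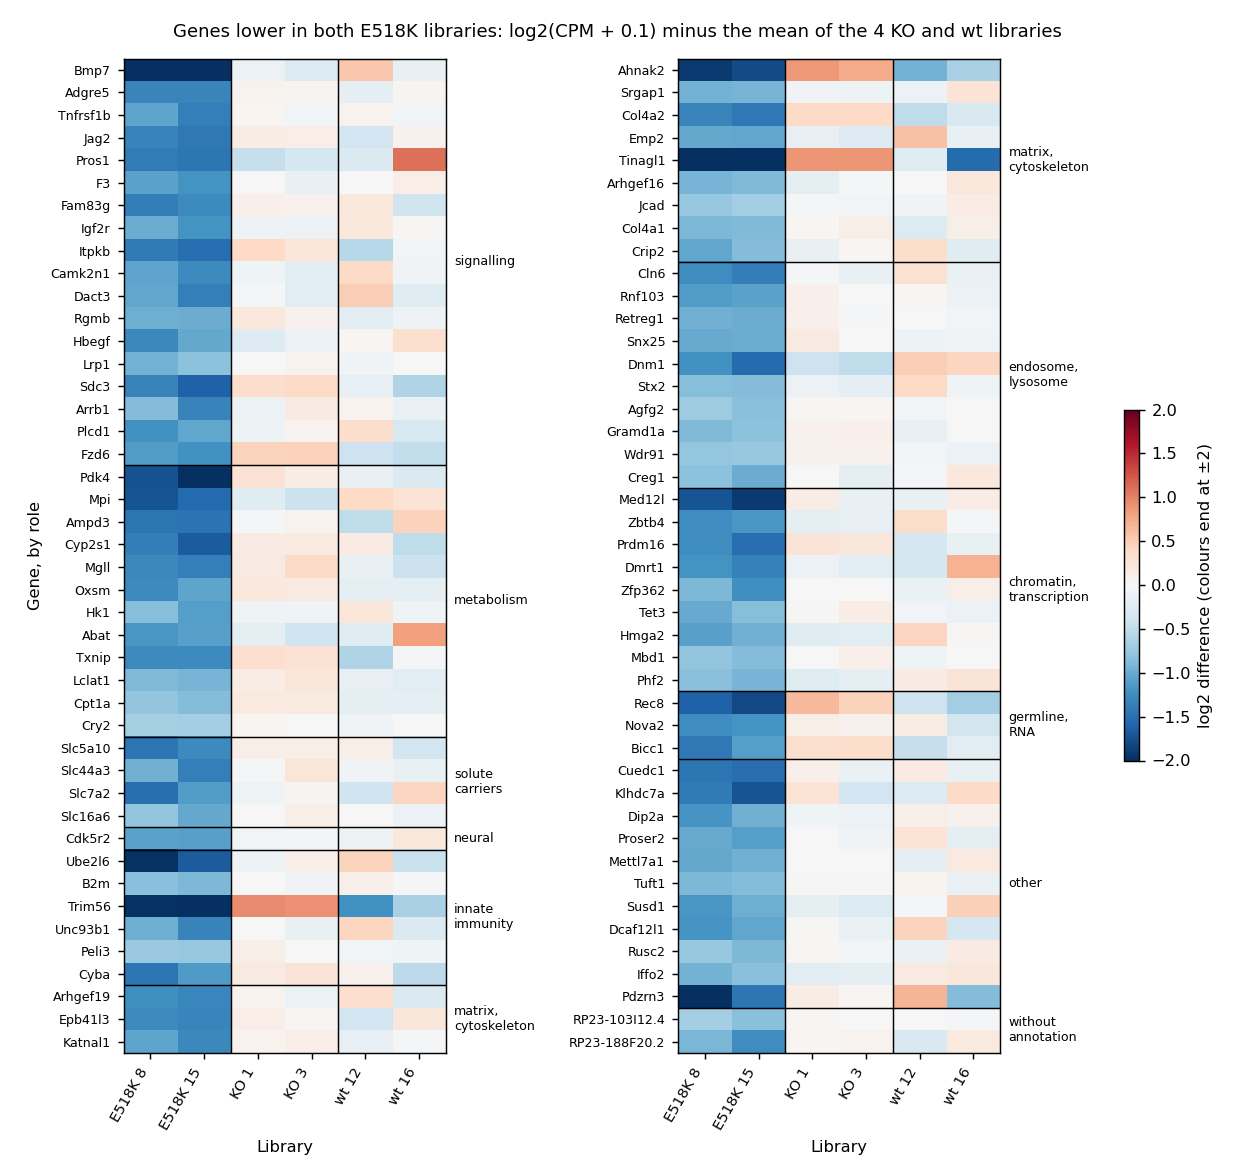
Each row is a lower gene, with 1 of the 89 not drawn, grouped by role and ordered by margin, and each column is a library. Colour gives log2(CPM + 0.1) minus the mean of the 4 KO and wt libraries (blue low, red high, colours end at 2 units). The 2 E518K columns are blue throughout, as the choice requires, and among the other 4 columns, for example, Trim56, Tinagl1, Ahnak2 and Rec8 are red in KO, and Pros1, Abat and Dmrt1 in wt clone 16.

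Of 40 lists of pathways and cell types, 9 held at least 1 chosen gene and 31 held none, and no list held more than 2. Of 480 list genes with enough reads, 9 were chosen (1.88%), against 0.834% of all genes with enough reads. The lists were drawn up with earlier results of these data known, so nothing is read from that share. None of the 96 ribosomal protein genes, 13 mitochondrially encoded genes and 46 cadherins and protocadherins with enough reads was in either set, and at the overall share fewer than 1 gene would fall in each of these families.

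The difference between KO and wt is the only contrast that the choice did not set E518K against. It was still bounded by it, since a gene with a wide gap between KO and wt had to clear the farther of them. Over all genes tested, edgeR called 27.4% higher and 29.7% lower in KO than in wt at an adjusted p under 0.05. Of the 13 higher genes it called 3, each lower in KO. Gng3 was lower in KO by a log2 difference of -1.31 ± 0.12 (SE, n = 2 libraries per group, edgeR adjusted p = 0.000159), Cntfr by -1.78 ± 0.20 (adjusted p = 0.000375) and Nkx1-2 by -0.93 ± 0.13 (adjusted p = 0.00101). For all 3, both KO libraries lay below both wt libraries. Without wt clone 12 or wt clone 16 more of the 13 were called, and so was a larger share of all tested genes.

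Of the 89 lower genes, 11 were called higher and 9 lower in KO than in wt, and 69 were not called. The 20 called genes are 22.5% of the set, where 57.2% of all genes tested were called. The largest values among those higher in KO were 1.78 ± 0.18 for Trim56 (edgeR adjusted p = 0.00025), 1.56 ± 0.39 for Tinagl1 (adjusted p = 0.0115), 1.52 ± 0.11 for Ahnak2 (adjusted p = 7.66e-05) and 1.03 ± 0.15 for Rec8 (adjusted p = 0.00103), all as log2 differences with SE. Fzd6, Col4a2, Sdc3, Bicc1, Txnip, Prdm16 and Cpt1a followed, between 0.84 ± 0.16 and 0.29 ± 0.06. The genes lower in KO were Pros1 at -1.05 ± 0.37 (adjusted p = 0.045), Dnm1 at -1.02 ± 0.18 (adjusted p = 0.00248), Mpi at -0.76 ± 0.12 (adjusted p = 0.00164), and Hmga2, Susd1, Phf2, Iffo2, Hbegf and Igf2r between -0.56 ± 0.15 and -0.31 ± 0.10. Several of these values rest on 1 wt clone. Pros1 was at -0.24 without wt clone 16 (edgeR adjusted p = 0.168) and at -1.57 without wt clone 12. Tinagl1 was at 1.02 without wt clone 16 and at 2.42 without wt clone 12, and Txnip, at 0.52 with both clones, was at 0.80 without clone 16 and 0.28 without clone 12. Without wt clone 12, Hmga2 was at -0.31 against -0.56 with both, and Igf2r at -0.18 against -0.31. Without wt clone 16, Sdc3 was at 0.42 against 0.66 with both, and Susd1 at -0.32 against -0.56.

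The number of calls among the 89 depended on which library was left out. It fell without either KO library and rose without either wt clone, and the share of all tested genes that was called moved the same way. Each of these fits compares a group of 1 library, which is assumed to vary like the other groups, and without a wt clone the spread within wt, the widest of the 3, no longer enters. The higher counts without a wt clone are thus no sign of a firmer difference. With either KO library left out, the same 13 of the 23 called genes of both sets were lost: Pros1, Prdm16, Igf2r, Col4a2, Hbegf, Sdc3, Hmga2, Susd1, Txnip, Bicc1, Iffo2, Cpt1a and Phf2. Without either E518K clone, Pros1, Susd1, Txnip and Bicc1 were lost. Igf2r and Bicc1 were lost without wt clone 12, and Pros1, Hbegf and Susd1 without wt clone 16. All 23 kept the sign of their difference in every fit that left out a library.

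The median log2 difference of KO from wt was -0.06 in the higher and -0.08 in the lower genes, against -0.02 over all genes tested. The median absolute difference was 0.39 and 0.22, against 0.52. In 8 of the 13 higher and 47 of the 89 lower genes the KO and wt libraries did not overlap, which was so for 85.1% of all genes with enough reads. Of those 47, KO was above wt in 31 and wt above KO in 16. The same split was not counted over all genes, so no lean is read from it.

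**Figure D4:**
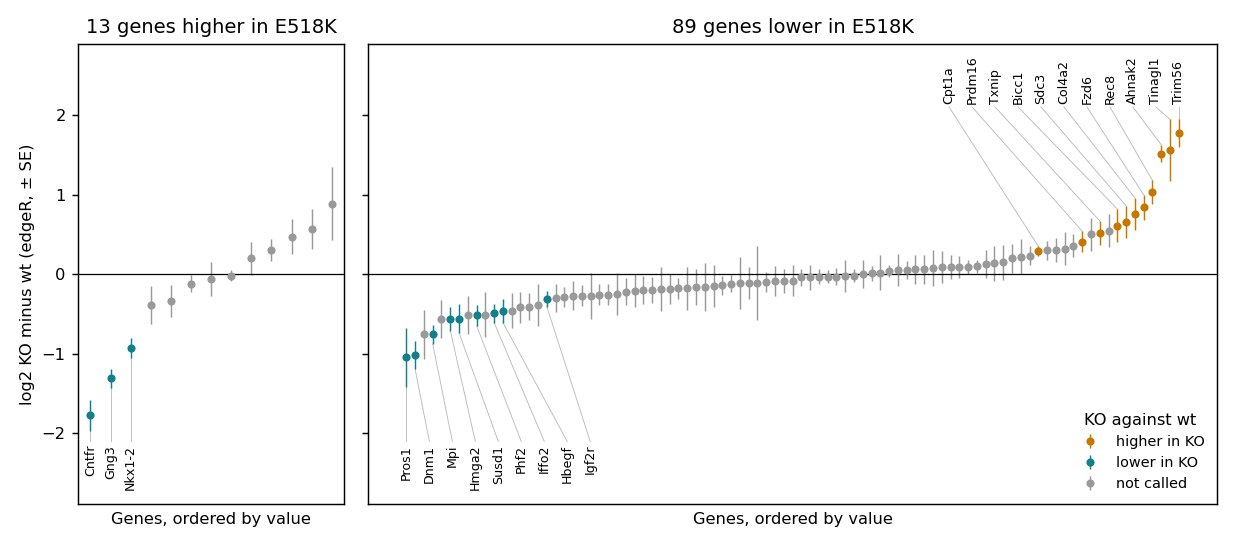
Fitted log2 difference of KO from wt with its SE for the 13 higher genes (left) and the 89 lower genes (right), each ordered by value. Coloured points are the genes called at an adjusted p under 0.05 and carry their names. Most points lie near 0, from -1.78 to 0.89 on the left and from -1.05 to 1.78 on the right.

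DGCR8 acts through miRNAs, so the 3′ UTRs were searched for the letters that pair with the seeds of 10 miRNA families known in stem or somatic cells. The mature sequences of 4 of them are shown with the seed in capitals, from RefSeq on GRCm38.p6. The first pair share most of their seed, shifted by 1 base, and the other pair are classic regulators of Hmga2 and of collagen genes.
mmu-miR-294-3p: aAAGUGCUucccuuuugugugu
mmu-miR-17-5p: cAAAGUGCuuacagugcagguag
mmu-let-7a-5p: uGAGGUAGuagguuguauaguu
mmu-miR-29a-3p: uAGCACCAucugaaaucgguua
The matching DNA letters are AGCACTT for miR-294, GCACTTT for miR-17, CTACCTC for let-7 and TGGTGCT for miR-29. A 3′ UTR was at hand for 12 higher and 87 lower genes and for 11427 genes with enough reads.

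The miR-294 site was in 27 of 87 lower genes (31.0%) and 0 of 12 higher genes, against 18.9% of all genes. The miR-17 site was in 26 lower genes (29.9%) and 0 higher genes, against 15.5%. The lower genes had longer UTRs, with a median of 1750 bases against 1380, and the higher genes shorter ones, with a median of 694. Per length, the lower genes had 0.211 miR-294 sites and 0.172 miR-17 sites per 1000 bases, against 0.13 and 0.101 over all genes. No test was made of these shares. For let-7 the share was 13.8% in the lower genes against 12.1%, and for miR-29 18.4% against 17.3%. Of the other 6 families, miR-15 and miR-16 sites were in 21.8% of lower genes against 27.9%, and miR-30 sites in 21.8% against 16.9%.

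**Figure D5:**
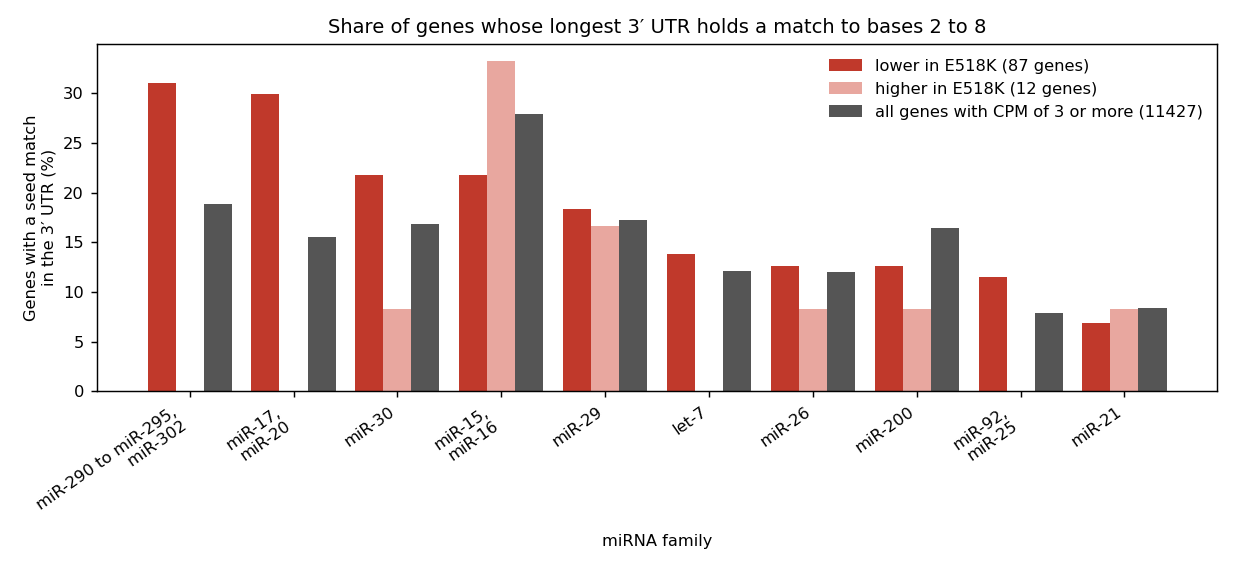
Percent of genes whose longest annotated 3′ UTR holds a 7-base match to the seed, for 10 miRNA families, in lower genes (red, 87), higher genes (pink, 12) and all genes with enough reads (grey, 11427). The red bars of the miR-290 to miR-295 and miR-17 families reach 31.0% and 29.9%, above grey bars of 18.9% and 15.5%.

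Either of these overlapping sites was in 35 lower genes (40.2%), and 18 of them held both, against 25.5% of all genes. Among those 35, 7 were called higher (20%) and 3 lower (8.57%) in KO than in wt, with a median log2 difference of -0.02. Among the 52 lower genes without a site, 4 were called higher (7.69%) and 6 lower (11.5%), with a median of -0.11. Over all genes with a site, 43.4% were called higher and 23.4% lower in KO and the median was 0.17, and without one 26.4% were called higher and 38.9% lower and the median was -0.11. The choice favours genes with a small gap between KO and wt, so the shares of the lower genes and of all genes were not tested against each other.

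Of the 27 lower genes with a miR-294 site, KO lay above wt without overlap in 13, below it in 4 (Zbtb4, Camk2n1, Dnm1 and Phf2), and the libraries overlapped in 10. Of the 60 without one, KO lay above in 17, below in 12, and 31 overlapped. Of the 27, edgeR called 7 higher and 2 lower in KO. Neither these orders nor these calls were counted over all genes with a miR-294 site, so nothing is read from them.

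Sites from some of these genes, picked after their values were seen so as to hold each order of KO and wt, are shown with 12 bases before and 3 after, the matching letters in capitals, from GENCODE M21 transcripts. Txnip held 2 miR-294 sites, both of which also match miR-17. Cpt1a, Pdk4 and Col4a2 held 1 miR-294 site each, and Tet3 and Prdm16 held 3. Camk2n1 held 2, and Dnm1 and Hk1 held 1.
Txnip, site 1: ggtgatgttcttAGCACTTtag
Txnip, site 2: tcactaagccttAGCACTTtgt
Cpt1a: tgtccctaagtaAGCACTTccc
Pdk4: ggaaggaatcaaAGCACTTtat
Col4a2: ggaggagatgatAGCACTTttt
Tet3, site 2: aagatttttttaAGCACTTttg
Prdm16, site 1: ccccttgggcccAGCACTTgga
Camk2n1, site 1: gaggagggagaaAGCACTTtga
Dnm1: tctcctggttcaAGCACTTctg
Hk1: gcctatagtcccAGCACTTggg
Being lowest in E518K is the choice itself. KO lay above wt without overlap for Txnip, Cpt1a, Pdk4, Col4a2, Tet3 and Prdm16, and the difference was called for all of these but Pdk4 and Tet3. KO lay below wt for Camk2n1, which was not called, and for Dnm1, which was. Camk2n1, an inhibitor of the kinase CaMKII, had 17.7 and 15.1 CPM in E518K, 34.7 and 31.4 CPM in KO and 47.7 and 35 CPM in wt. The KO and wt libraries of Hk1 overlapped.

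Hmga2 held 4 let-7 sites, the most of any chosen gene, and was lower in KO than in wt. A link between them was not tested. Col4a1 and Col4a2 held 2 miR-29 sites each and Tet3 held 8.
Hmga2, let-7 site 1: gacattcaatttCTACCTCagc
Hmga2, let-7 site 2: cactcctcaataCTACCTCtga
Col4a1, miR-29 site 2: accgtcacaacaTGGTGCTact
Col4a2, miR-29 site 1: ggaaggccacgtTGGTGCTtat
Tet3, miR-29 site 4: aaatgagaacgtTGGTGCTtta
Bmp7, the gene with the widest margin, held none of the 4 sites printed here and had 1 match to miR-30. A match in a UTR is a description of its letters and does not show that a miRNA acts there.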

How the data were processed

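Libraries were mapped to the groups E518K, KO and wt, 2 each, by their titles. The deposited count table holds whole-number raw counts per gene symbol, with no normalization. The deposited TPM table holds TPM values, computed by the authors from 1 length per gene. STAR, bedtools and build GRCm38.p6 are named per the submitters' processing notes, with versions not given in the sources used here. Gene length as implied by count and TPM was within 5% of the genomic span for 98.5% of 13762 genes. The counts are therefore taken to include intronic reads, although the length alone does not show which reads were counted.

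CPM was computed from counts and library totals with 0.1 added, a fold bound of 1.5 and a minimum of 3. Differences were fitted on the counts with edgeR 4.0.16 in R 4.3.3 (TMM factors, its expression filter with a count minimum of 10, robust quasi-likelihood test, group as the only term, all 6 libraries, Benjamini-Hochberg adjustment over 16498 genes). The fit leaves 3 residual degrees of freedom. DESeq2 1.42.0, limma 3.58.1 on log2(TPM + 1), other scalings, bounds and filters, and leaving out each library were alternatives. The fit and the rule were tested on simulated data.

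Members, the 40 lists, families, motifs and miRNA families were chosen with earlier results of these data known, and the roles were assigned after the members were seen. Genes are named by a rule: the 15 widest margins and 5 highest levels per direction, up to 4 chosen genes of each list, 3 just inside and 3 just outside the bound, overlapping or neighbouring chosen genes, and Dgcr8. The values of 1 lower gene are not reported here. Other names were picked after their values were seen, among them genes called between KO and wt. Coordinates and 3′ UTRs come from GENCODE M21 on GRCm38 (19792 of 21978 symbols matched, 55 more at several loci left out). Promoters and miRNAs come from RefSeq on GRCm38.p6.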

Additional observations from a re-analysis of the deposited data

How the results depend on the processing

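The size of the set depended on the settings of the rule. Against 13 higher and 89 lower genes, a bound of 2-fold left 2 and 11, a highest CPM of at least 10 left 8 and 55, and no minimum CPM gave 31 and 155. Adding 1 to every CPM left 8 higher and 66 lower. With TMM factors the rule took 18 and 79 genes, 13 and 77 of them chosen before, and with DESeq2 size factors 18 and 77. The deposited TPM gave 10 and 55, of which 8 and 40 had been chosen before. Of the 89 lower genes, 49 had a highest TPM under 3, and the other 40 were all chosen again. Of the 13 higher genes, 4 were under 3, and 8 of the other 9 were chosen again. Restricting to genes that overlap no other left 9 and 71. Leaving out 1 library gave 14 to 32 higher and 94 to 166 lower genes. Fewer libraries to clear loosen the rule by construction, so larger sets that hold the members show no stability.

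Genes called in KO against wt numbered 9429, and 6084 to 10958 with 1 library left out. For E518K against wt the count was 3917, 1999 with only the 4 libraries compared and 644 to 6987 with 1 library left out, the lowest without E518K clone 15. For E518K against KO it was 6902 and 3285 to 9482. Among the chosen genes, calls in KO against wt numbered 3 to 5 of the higher and 7 to 36 of the lower genes with 1 library left out, and limma on TPM called 13 lower genes. Under DESeq2 all 23 called genes remained called with their sign. Where these counts moved, the cause was not tested, except that a fit without a library has fewer degrees of freedom and takes the spread of a group of 1 library from the other groups.

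No paired analysis was possible because the groups share no replicate numbers. With 2 libraries a group, 3 residual degrees of freedom and KO libraries of 1 clone number, errors are uncertain, more so for genes with few reads.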
